A study of Homo sapiens with 28 samples.

Results

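The genes described here are 9 genes of the hepatocyte, 3 that encode transcription regulators (HNF4A, FOXA1 and FOXA2) and 6 that encode secreted proteins (APOB, ALB, AFP, SERPINA1, FGB and TTR), out of 20033 protein-coding genes of the annotation. They were taken by name, under a rule that uses no measured value. For each gene, peaks of N6-methyladenosine (m6A) were collected whose summit lay between 1000 bases upstream of the gene start and the gene end, with the strand of the gene (sense) and the opposite strand (antisense) kept apart. The 14 peak lists held 49 sense and 38 antisense peaks in these genes, out of 496678 peaks in all.

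The study asks how m6A on chromatin-associated RNA (caRNA) is controlled by the RNA-binding protein RBFOX2. The RNA that stays with chromatin was depleted of ribosomal RNA, enriched for m6A by an antibody and sequenced by strand (MeRIP-seq), and 1 peak list was deposited for each of 14 immunoprecipitated (IP) libraries. HepG2, a hepatoma line, was profiled in 2 libraries of WT genotype, and K562, a myelogenous leukaemia line, in 2 WT libraries. K562 cells carrying a control hairpin (Control, n = 2) or a hairpin against RBFOX2 (RBFOX2 KD, n = 2), and NB4 cells, an acute promyelocytic leukaemia line, with the same kinds of hairpin (n = 3 each), made up the rest. There were no HepG2 cells with a hairpin and no NB4 cells without one, so line and hairpin cannot be told apart in a comparison of HepG2 with NB4. HepG2 is 1 line, so its liver origin and its other differences from the leukaemia lines cannot be told apart either. The hairpins were delivered by lentivirus, and nothing in the labels says whether replicates were separate cultures, so the p-values below measure the spread between these libraries.

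HNF4A is a nuclear receptor and FOXA1 and FOXA2 are forkhead factors, and together they switch on much of the gene programme of the liver. The secreted proteins are among the main products of liver cells, which carry lipids, hormones and vitamins in blood, hold back proteases and form clots. m6A is placed on RNA by a methyltransferase complex while the RNA is made, mostly within a short sequence context, and it is often found in long internal exons and around the stop codon.

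The lists differed in length and depth. The HepG2 lists held 22700 and 27438 peaks, K562 lists 35619 to 44088 and NB4 lists 29609 to 39803. Effective reads, the depth to which peak calling had brought each library as recovered from its list, were 29.2 and 32.9 M (megareads) in HepG2, 24.9 and 25.6 M in K562 WT, 12.6 to 19.5 M in the other K562 libraries and 10.8 to 21.9 M in NB4. A sense peak was listed in 37.1% and 40.4% of protein-coding genes in HepG2 and in 41.5% to 48.9% in the other 12 libraries. The labels gave no batch or date. The lines were also checked against marker genes. Of 15 erythroid genes, 10 had a sense peak in every K562 library, 4 in every NB4 library and 1 in both HepG2 libraries. Of 12 myeloid genes, 9 had one in every NB4 library, 3 in every K562 library and 1 in both HepG2 libraries. The 2 leukaemia lines thus shared part of these markers.

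Sense peaks in the 9 genes numbered 12 and 24 in the HepG2 libraries. They numbered 4 in each K562 WT library, 1 and 2 in K562 Control, 2 and 0 in K562 RBFOX2 KD and 0 in each of the 6 NB4 libraries. Both HepG2 libraries stood above the other 12. In K562 all 13 sense peaks belonged to the 3 regulator genes, and no secreted protein gene was listed there. Sense peaks were present in both HepG2 libraries for 5 genes, HNF4A, FOXA1, FOXA2, FGB and TTR, and in HepG2 WT 2 alone for APOB and SERPINA1. ALB and AFP, the genes of the major plasma protein of the adult and of the fetus, had no peak on either strand in any of the 14 lists. A peak list does not measure RNA level, so a gene without a peak because it is not methylated and a gene without a peak because it is not transcribed cannot be told apart. Antisense peaks numbered 17 and 21 in HepG2 and 0 in each of the other 12 libraries.

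**Figure D1:**
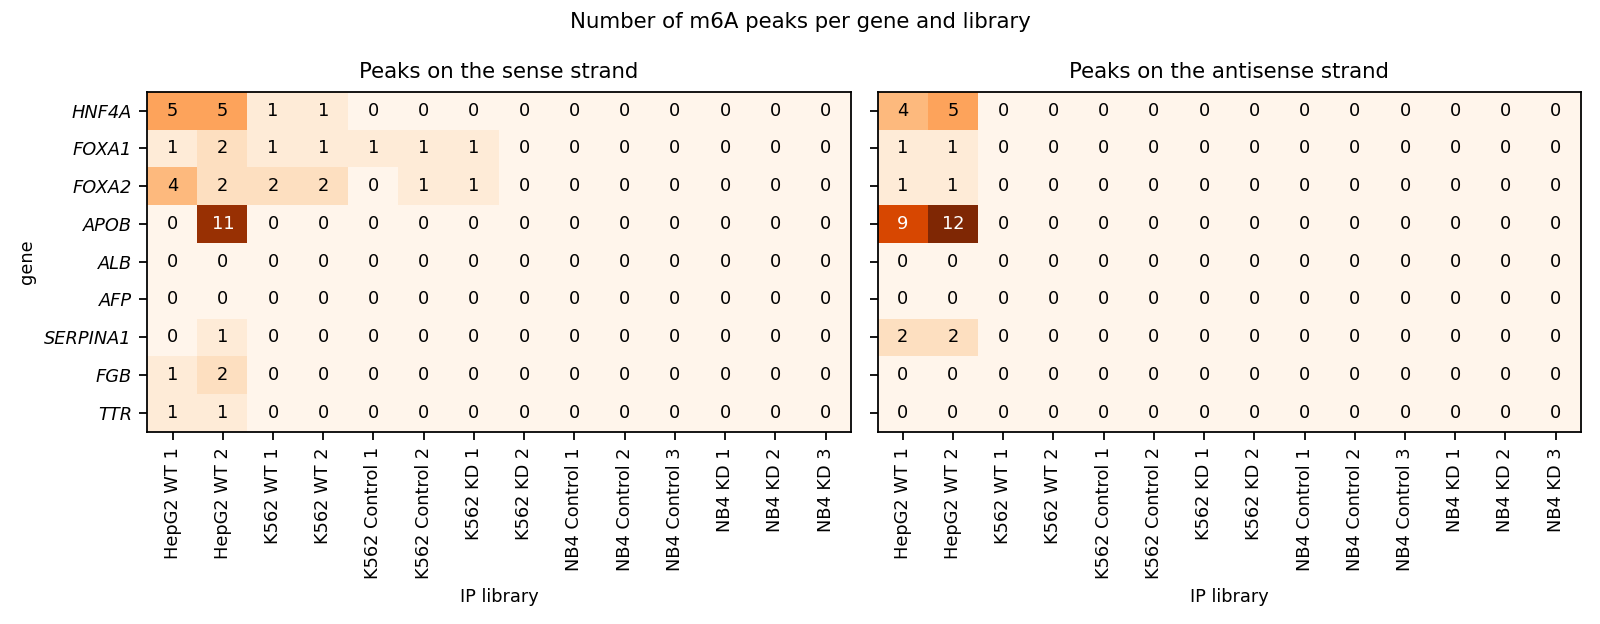
Number of m6A peaks in each of the 9 genes (rows) and 14 IP libraries (columns), on the strand of the gene (left) and on the opposite strand (right), with darker cells for higher numbers. HepG2 holds 36 of the 49 sense peaks and all 38 antisense peaks, APOB has 0 and 11 sense but 9 and 12 antisense peaks, and ALB and AFP are at 0 throughout.

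At least 1 sense peak in any library, the condition for a test, was met by 7 of the 9 genes, all but ALB and AFP. APOB, SERPINA1, FGB and TTR met it through HepG2 alone, as did 674 of the 12628 genes tested (5.34%). By the rule that both HepG2 libraries exceed each of the other 12 in the number of sense peaks, 3 genes were called, HNF4A, FGB and TTR. Over the 12628 protein-coding genes with a sense peak in at least 1 library, 6.36% met this rule. FGB and TTR also met the stricter rule of a sense peak in both HepG2 libraries and in none of the other 12, which 4.4% of the 12628 genes met. For the antisense strand, 5 genes, HNF4A, FOXA1, FOXA2, APOB and SERPINA1, met both rules, which 6.94% and 5.22% of the 6472 protein-coding genes with an antisense peak met. All 5 entered this count through HepG2 alone, so they could differ in that direction only, and the same holds for FGB and TTR on the sense strand. The exact permutation test over libraries (two-sided, 2 against 12) has 91 arrangements and cannot go below p = 0.011. For a gene with peaks in both HepG2 libraries and in none of the other 12, any number of peaks gives that smallest p. With Benjamini-Hochberg adjustment over all 12628 genes no gene passed 0.05 for the number of sense peaks, while 2462 had an unadjusted p under 0.05.

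HNF4A (ENSG00000101076.20, hg38 chromosome 20, 44355699 to 44432845, plus strand) had 5 sense peaks in each HepG2 library and 1 in each K562 WT library, and 0 in the remaining 10. The HepG2 value was higher by 4.83 peaks than the mean of the other 12 (p = 0.011 and adjusted p = 0.0851, exact two-sided permutation test) and by 4 than K562 WT, where 2 against 2 libraries allow no p below 0.333. The groups did not overlap. The 5 HepG2 sense peaks overlapped between the libraries, a pair of them in intron 1 and one in intron 8 of the canonical transcript, and a pair in the 3′ UTR in exon 10. In K562 WT the single summit, at 44430444 in both libraries, fell in the 3′ UTR inside the HepG2 peaks there.

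The strongest sense peak of HNF4A in both HepG2 libraries had its summit at 44401433 and 44401442. HNF4A is known to have an upstream promoter and a downstream promoter, and the downstream one is the main promoter of the adult liver. The peak ranked at percentile 80.2 and 78.6 of its list by -log10 q (100 is the strongest peak of the library) and had a fold over the local background of 4.38 and 4.99. In the canonical transcript this is intron 1, but 13 of the 17 GENCODE transcripts of the gene have their start exon there, and in 11 of them the summit lies in coding sequence. No K562 or NB4 library listed a peak at this exon. The sequence at the HepG2 WT 1 summit (chr20:44401383-44401483, plus strand, 50 bases either side) is shown because it marks this alternative start of the gene, together with 30 bases around the motif nearest the K562 WT summit in the 3′ UTR (chr20:44430429-44430458, plus strand). Capitals mark matches to DRACH, the usual context of m6A, which reads A, G or U, then A or G, then A, then C, then A, C or U.
HNF4A, alternative start exon: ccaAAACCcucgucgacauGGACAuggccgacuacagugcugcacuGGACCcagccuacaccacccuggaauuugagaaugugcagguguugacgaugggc
HNF4A, 3′ UTR: cgacugcaacagGAACUuggaguggagagg
The motif nearest the HepG2 WT 1 summit in the start exon had its A 2 bases upstream of the summit, and the one in the 3′ UTR lay 1 base upstream of the K562 summit.

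The other HNF4A peaks varied more in rank than in place. In the 3′ UTR, the peak near 44431780 ranked at percentile 74.2 and 78.6 in HepG2, with folds of 2.96 and 3.32, and the peak with summits at 44430415 and 44430501 at 50.6 and 59.0, with folds of 2.001 and 1.96. The K562 WT peaks at 44430444 ranked at 20.8 and 43.1 with folds of 4.12 and 5.63. Their fold was thus above that of the HepG2 peaks over the same bases and their rank below it. The IP reads over the summit, recovered from the lists, were 687 and 649 in HepG2 and 65 and 87 in K562 WT. The local background was 143 and 246 in HepG2 and 15.0 and 14.6 in K562 WT, the latter being the genome-wide background of those libraries. IP reads are given here as sequenced, while fold and local background are on the scale of peak calling, where the IP reads of the HepG2 libraries had been multiplied by 0.418 and 0.744 and those of K562 by 1. What the local background was made from is not stated for each list, and that it came from the input RNA is inferred from this scaling alone. The peak in intron 8 (summit 44426113 in both HepG2 libraries) ranked at 12.2 and 46.3, and the one at 44360431 and 44360430 in intron 1 at 54.7 and 34.4.

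**Figure D2:**
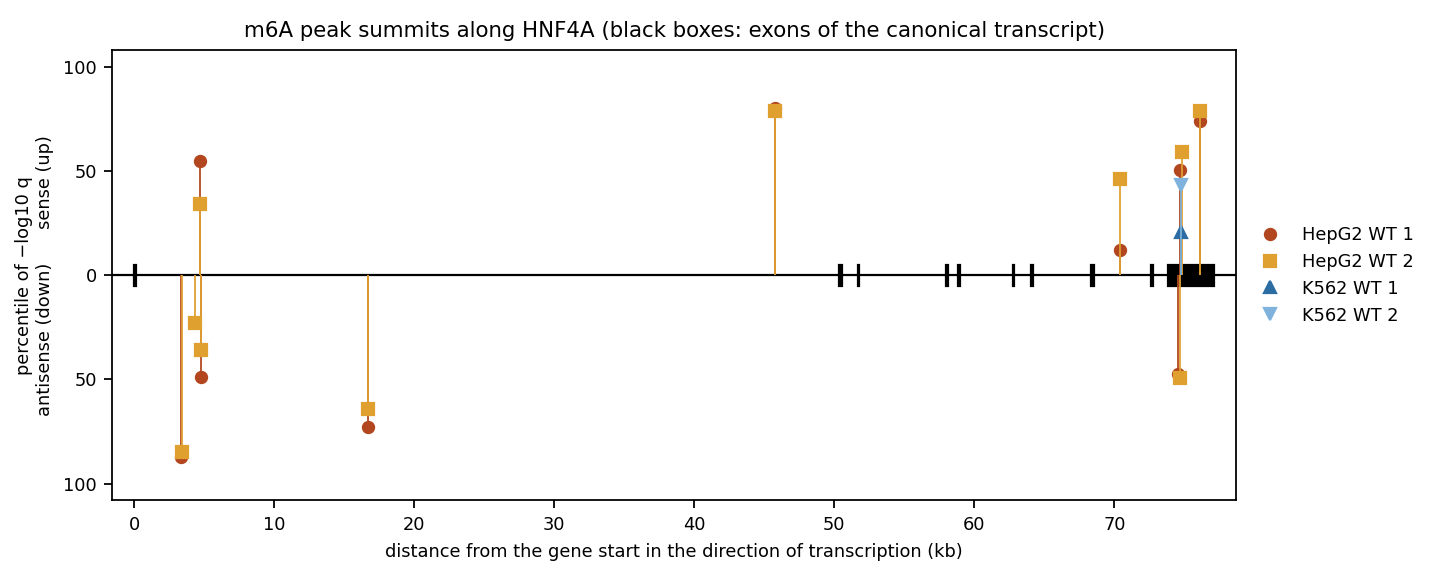
Summits of m6A peaks along HNF4A by distance from the gene start in kilobases, with the percentile of -log10 q within the library upwards for sense and downwards for antisense peaks. Circles and squares are HepG2 WT 1 and 2 and triangles K562 WT 1 and 2. The HepG2 libraries share their positions, and the K562 summits stand only in the last exon, at percentiles 20.8 and 43.1.

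On the antisense strand HNF4A had 4 and 5 peaks in HepG2 and 0 elsewhere (difference 4.50 peaks, p = 0.011 and adjusted p = 0.104, exact two-sided permutation test over 6472 genes). Listing in both HepG2 libraries and nowhere else fixed this p, whatever the number of peaks. The strongest antisense peak, with summits at 44359066 and 44359097 in intron 1, ranked at percentile 87.0 and 84.7 with folds of 7.05 and 8.11, above every sense peak of the gene in the same library. Other antisense summits stood in intron 1 at 44360493 and 44360510 and at 44372415 and 44372411, with a further one at 44360072 in HepG2 WT 2, and in the 3′ UTR at 44430275 and 44430368. No annotated gene on the minus strand covered any of these summits, and at all 9 the local background was the genome-wide one, against 0 of 10 on the sense strand. The sequence of the minus strand at the HepG2 WT 1 summit (chr20:44359016-44359116) is given for the strongest peak, with DRACH in capitals.
HNF4A, antisense, intron 1: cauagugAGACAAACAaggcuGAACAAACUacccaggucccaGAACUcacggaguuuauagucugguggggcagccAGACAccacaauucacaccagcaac

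FOXA1 (ENSG00000129514.8, hg38 chromosome 14, 37589552 to 37596059, minus strand) had 1 and 2 sense peaks in HepG2. It had 1 in each K562 WT library, 1 in each K562 Control library, 1 and 0 in K562 RBFOX2 KD and 0 in all 6 NB4 libraries. The number of peaks in HepG2 and in K562 overlapped, and the difference of 1.08 peaks from the other 12 had p = 0.0659 (exact permutation test, two-sided, adjusted p = 0.286). The rank of the peak did not overlap. The strongest sense peak stood at percentile 96.9 and 99 in HepG2. In K562 it stood at 3.65 and 7.93 in WT, 19.8 and 46.0 in Control and 39.3 in RBFOX2 KD 1.

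The HepG2 peak of FOXA1 had its summit in coding exon 2, which encodes the forkhead DNA-binding domain, and was 1656 and 1684 bases wide. K562 peaks in the same exon were 174 to 311 bases wide. Within the broad HepG2 peak the summit lay at 37591659 in WT 1 and at 37592296 in WT 2, and K562 summits lay near either place, at 37591798 and 37591652 in WT and at 37592298, 37592278 and 37592270 in the hairpin libraries. IP reads at the HepG2 summits were 558 and 502 as sequenced. On the scale of peak calling they were 232 and 372, over a local background of 40.0 and 42.0. In K562, whose reads were multiplied by 1, IP reads were 46 to 80, over the genome-wide background. The fold of the exon 2 peak was 5.69 and 8.67 in HepG2 and 3.03 to 6.73 in K562, so that the lines overlapped in fold. The bases around the summit of HepG2 WT 2 (chr14:37592246-37592346, minus strand), where 3 K562 libraries also had their summit, are shown because they hold no match to DRACH.
FOXA1, coding exon 2: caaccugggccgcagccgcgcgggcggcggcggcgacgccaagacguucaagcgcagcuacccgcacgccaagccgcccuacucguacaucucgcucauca
HepG2 WT 2 also listed a sense peak in the 5′ UTR (summit 37594994, percentile 7.48). The antisense peak of FOXA1, at 37595778 and 37595781, lay upstream of the canonical transcript and within TTC6, a gene on the plus strand whose annotation overlaps it, so antisense RNA of FOXA1 and RNA of TTC6 cannot be told apart.

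FOXA2 (ENSG00000125798.15, hg38 chromosome 20, 22580998 to 22585455, minus strand) had 4 and 2 sense peaks in HepG2. K562 WT had 2 and 2, K562 Control 0 and 1, K562 RBFOX2 KD 1 and 0, and NB4 0 in each library. HepG2 WT 2 and the K562 WT libraries thus had the same number, and the difference of 2.50 peaks from the other 12 had p = 0.033 (exact permutation test, two-sided, adjusted p = 0.184). The strongest sense peak lay at the start of the 3′ UTR in exon 2, at 22581844 and 22581852 in HepG2 and 22581819 to 22581850 in the 4 K562 libraries that listed it. It ranked at percentile 93.8 and 99.3 in HepG2, 58.5 and 70.5 in K562 WT, 24.6 in K562 Control 2 and 33.0 in K562 RBFOX2 KD 1, so that in rank both HepG2 libraries were above every K562 library. The fold did not separate the lines. It was 4.17 and 7.66 in HepG2, 7.42 and 9.47 in K562 WT, 4.81 in K562 Control 2 and 6.05 in K562 RBFOX2 KD 1. A stretch of 30 bases around the motif nearest the HepG2 WT 2 summit (chr20:22581846-22581875, minus strand) shows the site common to both lines.
FOXA2, 3′ UTR: cccggcccauuauGAACUccucuuaagaag

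In coding exon 2 of FOXA2, HepG2 WT 1 had a peak at 22582823 and both K562 WT libraries one at 22582830. In HepG2 WT 2 no separate summit was listed there, but its 3′ UTR peak ran over 1660 bases and covered the place. Both HepG2 libraries listed a peak at 22583412 in intron 1, at percentile 31.8 and 36.2, which no K562 library had. HepG2 WT 1 alone had one at 22585317, 745 bases upstream of the canonical transcript. The antisense peak of FOXA2, at 22581955 and 22581956 in exon 2, ranked at 81.8 and 76.2 with folds of 6.29 and 6.67 and was listed in both HepG2 libraries and in none of the other 12.

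**Figure D3:**
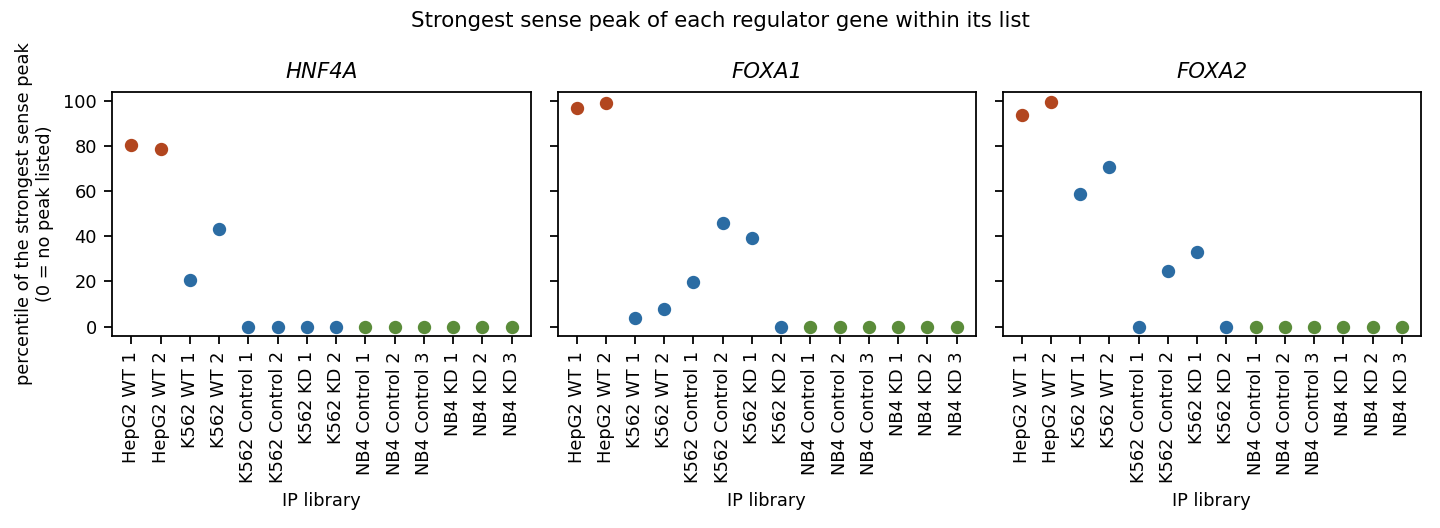
Percentile of the strongest sense peak of HNF4A, FOXA1 and FOXA2 (panels) in each of the 14 IP libraries (upright axis, 100 the strongest peak of the list), with HepG2 in brown, K562 in blue, NB4 in green and 0 where no peak was listed. HepG2 lies at 78.6 or more for each gene, the highest K562 value is 70.5 for FOXA2, and NB4 is at 0.

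Ranks of the strongest sense peak were compared across all genes with the same test. HepG2 exceeded the mean of the other 12 libraries by 74.1 percentile points for HNF4A, 88.2 for FOXA1, 81.0 for FOXA2, 39.0 for FGB and 6.44 for TTR, each with the smallest possible p (p = 0.011 and adjusted p = 0.0483, exact two-sided permutation test over 12628 genes), and each of the 5 genes was higher in 2 of 2 HepG2 libraries. In all, 2876 genes passed this adjusted p, of which 1015, or 8.04% of those tested, were higher in HepG2. FGB and TTR were listed in HepG2 alone and so could differ in that direction only. For these genes any rank in both HepG2 libraries, however low, would give the smallest possible p. Leaving out any of the 14 libraries moved the adjusted p of the 5 genes above 0.05, to between 0.0529 and 0.290. Equal list sizes moved it to 0.0507 for HNF4A, FOXA1, FOXA2 and FGB and to 0.354 for TTR, whose difference was then 1.68 points. HNF4A, FOXA1 and FOXA2 were also compared with K562 without NB4. Against the 6 K562 libraries, the difference was 68.8 points for HNF4A, 78.5 for FOXA1 and 65.5 for FOXA2 (exact permutation test, two-sided, 28 arrangements, p = 0.0357, adjusted p = 0.0815).

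Whether a regulator gene was listed in K562 moved with depth. HNF4A was listed in the 2 K562 libraries with the most effective reads (25.6 and 24.9 M), FOXA2 in the 4 deepest and FOXA1 in the 5 deepest of the 6, and the shallowest, RBFOX2 KD 2 with 12.6 M, listed none of them. The part of depth in these listings was not tested, and since the 2 deepest libraries are also the 2 without a hairpin, depth and hairpin cannot be told apart for HNF4A. All 13 K562 peaks stood on the genome-wide background, which holds for 64.8% to 71.9% of all peaks of those libraries. NB4 RBFOX2 KD 1, with 21.9 M effective reads, was deeper than 4 of the 6 K562 libraries and listed none of the 3 genes.

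RBFOX2 KD was compared with Control in K562 and NB4 for the same genes. The KD minus Control difference was -0.5 peaks for FOXA1 and 0 for FOXA2 in K562, and both had 0 peaks in NB4 in either group. Over both lines p was 1 for each (exact permutation test within lines, two-sided, 120 arrangements, adjusted p = 1 over 11603 genes). The other 7 genes had no sense peak in these 10 libraries. Among all 11603 genes, none passed an adjusted p of 0.05 and 151 had an unadjusted p under 0.05, with 0.0167 the smallest possible. The peak lists do not give the level of RBFOX2 itself.

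Among the secreted protein genes, FGB (ENSG00000171564.12, hg38 chromosome 4, 154563011 to 154572807, plus strand), which encodes the beta chain of fibrinogen, had 1 and 2 sense peaks in HepG2 and 0 in the other 12 libraries (difference 1.5, p = 0.011 and adjusted p = 0.0851, exact two-sided permutation test). Listing in both HepG2 libraries and nowhere else fixed this p. The peaks of the HepG2 libraries did not share a place. WT 1 listed coding exon 4 (summit 154567605, percentile 13.6), and WT 2 listed exon 7 (154569560, percentile 18.9) and exon 8 (154570460, percentile 64.3). Without HepG2 WT 2 the difference was 1 peak, and without HepG2 WT 1 it was 2. The exon 8 peak was the strongest peak of the gene, with 390 IP reads as sequenced. On the scale of peak calling these were 290, over a local background of 110.0, and the fold was 2.62. The surroundings of this summit (chr4:154570410-154570510, plus strand) run from the end of intron 7 into exon 8.
FGB, exon 8: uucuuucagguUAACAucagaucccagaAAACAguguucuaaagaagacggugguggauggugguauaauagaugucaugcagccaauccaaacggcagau

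TTR (ENSG00000118271.12, hg38 chromosome 18, 31557009 to 31598833, plus strand) encodes transthyretin, a carrier of thyroid hormone and retinol. It had 1 sense peak in each HepG2 library and 0 elsewhere, and the places agreed within 1 base, at 31598645 and 31598644 in coding exon 4 of 4. The difference was 1.00 peak (p = 0.011 and adjusted p = 0.0851, exact two-sided permutation test), and listing in HepG2 alone fixed this p. The peak was among the weakest of its lists, at percentile 3.35 and 9.53 with folds of 1.83 and 2.11, and it was listed in only 1 of the HepG2 libraries when peaks with a -log10 q under 5 were left out. The coding bases around the WT 2 summit (chr18:31598594-31598672, plus strand) hold no DRACH match, and a GGACU motif lay 34 and 35 bases downstream of the summits, past the stretch shown.
TTR, coding exon 4: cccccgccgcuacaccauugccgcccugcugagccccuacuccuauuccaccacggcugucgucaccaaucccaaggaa

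APOB (ENSG00000084674.15, hg38 chromosome 2, 21001429 to 21044073, minus strand), the gene of the main structural protein of low-density lipoprotein, differed between the strands. On the sense strand it had 0 peaks in HepG2 WT 1, 11 in HepG2 WT 2 and 0 in the other 12 libraries (difference 5.50, p = 0.143 and adjusted p = 0.453, exact two-sided permutation test). The sense result thus rests on 1 library. On the antisense strand it had 9 and 12 peaks in HepG2 and 0 elsewhere (difference 10.5, p = 0.011 and adjusted p = 0.104, exact two-sided permutation test). With 0 elsewhere, any number of peaks in both HepG2 libraries would give this p. By number of antisense peaks APOB was among the 19 highest of 20033 protein-coding genes in HepG2 WT 1 and among the 9 highest in WT 2, ties included. Antisense peaks outnumbered sense peaks in 12.6% and 12.3% of the protein-coding genes with a peak in these libraries.

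The 11 sense peaks of APOB were weak in fold and deep in reads. Their fold was 1.22 to 1.71, where the median of all peaks of the library was 4.03, and their percentile 0.0474 to 45.9 with a median of 4.30. IP reads at the summits were 612 to 739 as sequenced, over a local background of 306 to 438 on the scale of peak calling. At 21002665, 21008947 and 21012113 the reads were not recovered as whole numbers, so the values there, with the highest background of 438, are estimates. Reads extended to 150 bases, with at most 5 duplicates kept, cannot pile up beyond 750, so the 11 summits stood at 81.6% to 98.5% of the highest value the peak calling allowed. In HepG2 WT 2, 0.893% of all peaks had 600 or more IP reads and 0.179% a local background of 300 or more. The part of this ceiling in the missing sense peaks of HepG2 WT 1, or of ALB and AFP, was not tested.

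Antisense peaks of APOB had folds of 3.33 to 9.21 in HepG2 WT 1 and 2.43 to 9.55 in WT 2. IP reads as sequenced were 157 to 640 and 88 to 531, over a local background of 17.2 to 58.0 and 19.3 to 84.0 on the scale of peak calling. The highest local background on this strand, 84.0, was below the lowest on the sense strand, 306, and the lowest fold, 2.43, above the highest sense fold, 1.71. The strongest in WT 1, at 21011304 in exon 26, ranked at percentile 98.4 and was found in WT 2 at 21011306 with percentile 96.9. The strongest in WT 2, at 21009410 in the same exon, ranked at 99 and stood in WT 1 at 21009405 with 96.4. All 9 in WT 1 and 9 of 12 in WT 2 were in exons of the canonical transcript, which make up 33.1% of its span, and 3 in each library lay in the long exon 26. No annotated gene on the plus strand covered them. Antisense RNA and reads of sense RNA assigned to the wrong strand cannot be told apart in these lists, for APOB as for the other genes. The sequences at a strong antisense summit (chr2:21011254-21011354, plus strand) and at a sense summit of HepG2 WT 2 elsewhere in the same exon (chr2:21005350-21005450, minus strand) are shown, each read 5′ to 3′ on the strand of its peak with DRACH in capitals, as 1 example of each strand.
APOB, antisense, exon 26: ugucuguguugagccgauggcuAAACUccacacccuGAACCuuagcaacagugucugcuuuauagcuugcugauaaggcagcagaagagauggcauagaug
APOB, sense, exon 26: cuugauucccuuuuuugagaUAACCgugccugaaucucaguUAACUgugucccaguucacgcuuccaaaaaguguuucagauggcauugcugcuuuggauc

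**Figure D4:**
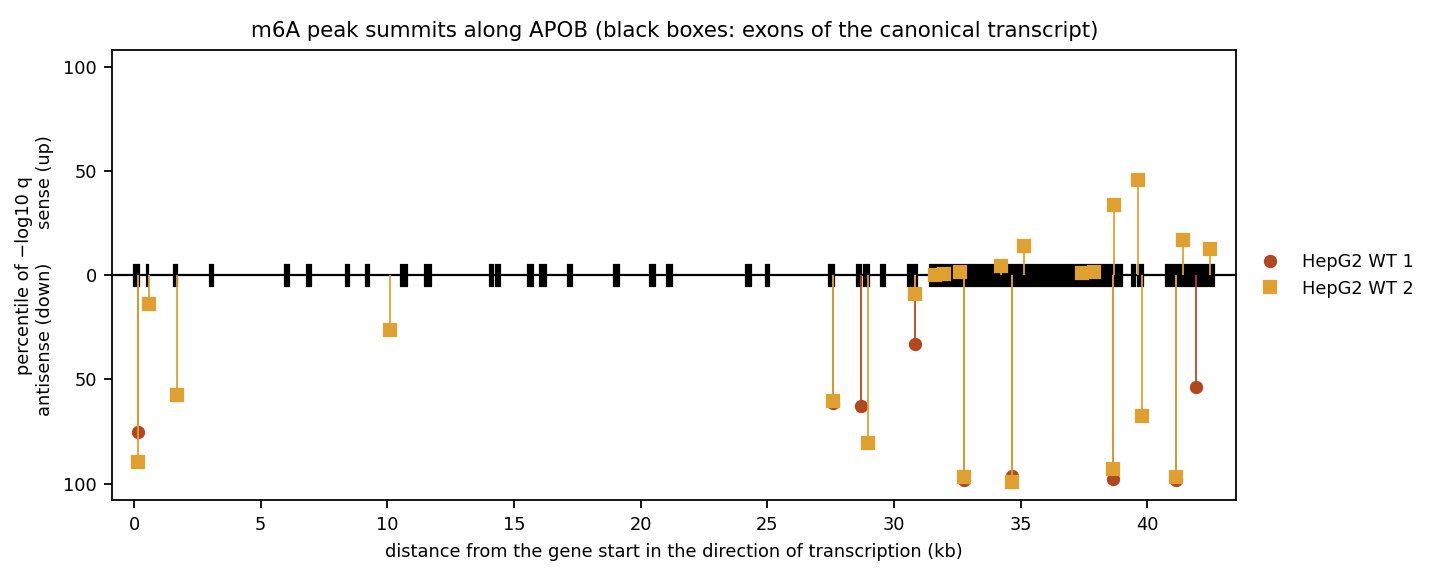
Summits of m6A peaks along APOB by distance from the gene start in kilobases, with the percentile of -log10 q within the library upwards for sense and downwards for antisense peaks, circles for HepG2 WT 1 and squares for HepG2 WT 2. Sense summits come from WT 2 alone and reach percentile 45.9, and antisense summits of both libraries reach 98.4 and 99 over the exons near the gene end.

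SERPINA1 (ENSG00000197249.14, hg38 chromosome 14, 94376747 to 94390693, minus strand), the gene of the protease inhibitor alpha-1 antitrypsin, had more antisense than sense peaks in both HepG2 libraries, like APOB. It had 0 and 1 sense peaks in HepG2 and 0 in the other 12 libraries (difference 0.50, p = 0.143 and adjusted p = 0.453, exact two-sided permutation test). The 1 peak stood in exon 3 at percentile 1.5 with a fold of 1.30. It had an estimated 507 IP reads as sequenced, over an estimated local background of 289 on the scale of peak calling. On the antisense strand it had 2 and 2 peaks in HepG2 and 0 elsewhere (difference 2.00, p = 0.011 and adjusted p = 0.104, exact two-sided permutation test). Here too, listing in both HepG2 libraries and nowhere else fixed the p. With equal list sizes the difference was 1 peak (p = 0.143, exact two-sided permutation test). The antisense summits were in coding exons 2 and 3, at percentiles 25.9 and 19.1 in WT 1 and 6.93 and 4.76 in WT 2.

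ALB (ENSG00000163631.18, hg38 chromosome 4, 73397114 to 73421482, plus strand) and AFP (ENSG00000081051.8, hg38 chromosome 4, 73431138 to 73456174, plus strand) are neighbours in the genome. Neither gene had a peak on either strand in HepG2, where APOB, SERPINA1, FGB and TTR did, and neither entered a test.

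**Figure D5:**
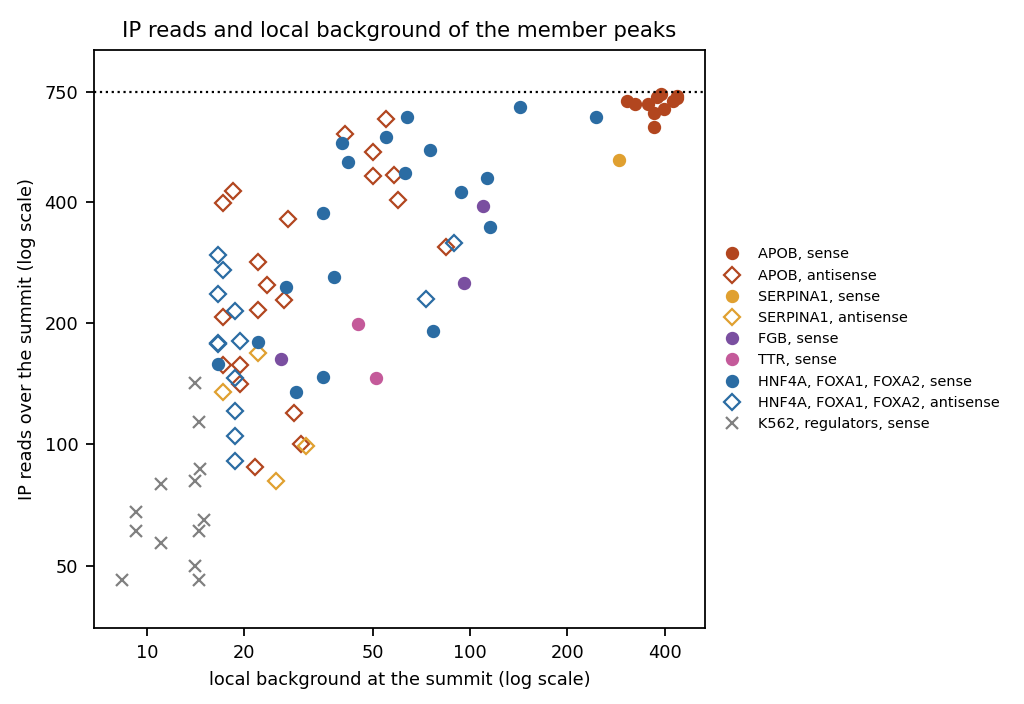
IP reads over the summit against the local background of the peaks in these genes, both on log axes, with filled circles for HepG2 sense, open diamonds for HepG2 antisense and grey crosses for K562 peaks, colours for the genes and a dotted line at 750 reads. Sense peaks of APOB and SERPINA1 lie at the upper right, at 507 to 739 reads over a background of 289 to 438, and K562 peaks at the lower left, at 46 to 142 reads. Reads are as sequenced and the background is on the scale of peak calling. The values of the SERPINA1 sense peak and of some APOB sense peaks are estimates.

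At 1 of the 36 HepG2 sense peaks the local background was the genome-wide background (within a factor of 1.01), at the median sense peak it was 4.91 times that value and at the highest, in APOB, 23.5 times. Among all HepG2 peaks, 50.1% and 47.8% stood at the genome-wide background. Of the 38 antisense peaks, 17 did, with a median of 1.13 times. At the 13 K562 peaks the fold was 3.03 to 9.47. The median fold of the sense peaks of these genes was 3.19 in HepG2 WT 1 and 1.77 in HepG2 WT 2, where 11 of 24 were those of APOB, and over all peaks of the lists it was 3.84 and 4.03.

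By place in the canonical transcript, 18 HepG2 sense peaks of the 9 genes lay in coding exons, 9 in introns, 7 in 3′ UTRs, 1 in a 5′ UTR and 1 upstream. In these counts and the motif counts below, a site listed in both HepG2 libraries enters for each of them. APOB in HepG2 WT 2 alone gave 11 of the 36 sense peaks. The intron peaks include the HNF4A summits at 44401433 and 44401442, inside the start exon of other transcripts. The K562 peaks lay in coding exons (7) and 3′ UTRs (6), and none in an intron. Of the HepG2 antisense peaks 24 lay over coding exons, 10 over introns, 2 over 3′ UTRs and 2 upstream. A DRACH match was found up to 75 bases away from the summit, reading the strand on which the peak was called, at 33 of 36 HepG2 sense and 35 of 38 antisense peaks. It did so at 96.0% and 95.5% of all HepG2 peaks. The form GGACU stood at 6 of 36 and 4 of 38 peaks, where all HepG2 peaks had it at 23.4% and 22%. Among the antisense peaks, the strand opposite to the peak, which is that of the gene, held GGACU at 6 of 38, and for all HepG2 peaks the opposite strand held it at 10.0% and 10.2%. DRACH and GGACU overlap, since every GGACU is a DRACH match.

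Further genes of the same roles were counted from lists of 20 regulators and 44 secreted proteins of hepatocytes. Over all protein-coding genes, 36.3% had a sense peak in both HepG2 libraries, and 6.36% of those tested were called by the rule of more peaks than each of the other 12. Of the 20 regulators, 17 had a sense peak in both HepG2 libraries and 13 of the 17 tested were called. With genes without a peak counted as 0, the median difference was 1.88 peaks for these regulators, 1.08 for the 9 genes above and 0 over the 20033 protein-coding genes. Of the 44 secreted protein genes, 17 had a sense peak in both HepG2 libraries, a share near that of all genes, and 16 of the 27 tested were called, with a median difference of 0.50. Of those called, 10 regulators and 14 secreted protein genes were listed in HepG2 alone and so could differ in that direction only. Another 17 secreted protein genes had no sense peak in any library, as ALB and AFP had none. Regulators were also listed in the other lines, 6 of 20 in at least 1 K562 library and 4 of 20 in NB4. On the antisense strand 3 of the 8 regulators tested and 13 of the 18 secreted protein genes tested were called, against 6.94% of all genes tested. Of those called, 3 regulators and 12 secreted protein genes had antisense peaks in HepG2 alone and so could differ in that direction only. Of all 6472 genes tested on this strand, 7.28% entered through HepG2 alone.

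The highest mean percentile of the strongest sense peak in HepG2 was that of the homeobox factor ONECUT1, 99.7 ± 0.253 (SD, n = 2), which was above HNF4A at 79.4 ± 1.11, FOXA1 at 97.9 ± 1.55 and FOXA2 at 96.5 ± 3.94. TBX3 (93.2 ± 3.27), GATA4 (90.2 ± 2.15), PROX1, NR0B2 (84.4 ± 1.08), NR1H4 (59.2 ± 36.7), NR1I2 (52.3 ± 20.7), HNF4G and CREB3L3 (33.9 ± 14.4) were listed in HepG2 and in none of the other 12 libraries, and so was ONECUT1. NR5A2 (96.1 ± 0.924) was listed in 1 K562 library, FOXA3 (91.9 ± 0.989) in 3 and ONECUT2 in all 6, at 69.5 on average. CEBPA (88.6 ± 7.85), a factor of both liver and myeloid cells, was listed in all 6 NB4 libraries, and HHEX (87.8 ± 0.191), PPARA and RXRA (30.7 ± 6.43) were listed in all 14 libraries. Secreted protein genes among the 12 highest of both lists were HP (96.1 ± 2.72), F7 (96.0 ± 2.85), SERPINA6 (91.5 ± 4.09), F5 (90.9 ± 1.09) and TF, which encode haptoglobin, coagulation factors VII and V, the carrier of cortisol and transferrin. Each of these 5 was listed in both HepG2 libraries and in none of the other 12, and FGB (39.0 ± 35.9) and TTR (6.44 ± 4.37) ranked below them.

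Genes with the most similar pattern of the strongest sense peak over the 14 libraries were sought for the 3 genes with the most HepG2 sense peaks. For HNF4A they were SPATA25, TRIM47 and ZNF606, with a mean absolute difference of 1.88, 2.54 and 2.74 percentile points. For FOXA2 they were TPM1 (3.16), LBX2 (4.24) and NUPR1 (5.24), with the highest K562 value at 75.8, 68.5 and 66.6. For APOB they were CHSY3, RIN2 and TIMP3, each with 1 sense peak in HepG2 WT 2 alone, so that this likeness rests on a single library.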

How the data were processed

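The data are peak lists of caRNA m6A MeRIP-seq from 14 IP libraries of HepG2, K562 and NB4, out of 28 samples that also included inputs, whose files were not analysed here. According to the methods of the study, the authors trimmed reads with Trimmomatic 0.39, aligned them by strand to hg38 with HISAT2 2.1.0 and GENCODE release 29, split them by strand with SAMtools 1.9 and called peaks with MACS 2 (extension of 150 bases, at most 5 duplicates kept, q under 0.01). For later steps the authors merged the peaks that at least 2 biological replicates shared. Here each library kept its own list, and peaks listed in a single library were kept. The deposited columns used hold a score, the fold enrichment as a ratio of IP over local background, the -log10 p-value and -log10 q-value, and the summit offset.

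Members and gene lists were chosen with earlier results of these data known. Peaks were assigned to genes of GENCODE release 44 by summit and strand. The values compared were the number of peaks per gene and library and the percentile of the strongest peak within its list by -log10 q, with 0 where no peak was listed. IP reads and local background were recovered from fold and -log10 p, and the reads came out whole, within 0.05 read, at 98.75% to 100% of summits. Where the reads did not come out whole, both values are estimates. This was so for the SERPINA1 sense peak, the TTR peak of HepG2 WT 1 and some APOB sense peaks. HepG2 WT was compared with the other libraries by an exact two-sided permutation test per gene, with Benjamini-Hochberg adjustment over all protein-coding genes with a peak (12628 sense, 6472 antisense), and RBFOX2 KD with Control within lines. The named genes are the 9 members, the 3 genes most like each of the 3 members with the most HepG2 sense peaks, the 12 highest of the wider lists and every regulator in both HepG2 libraries. Some genes of the wider lists and a sequence are not reported here. Alternatives were the gene body alone, peak overlap, a -log10 q of at least 5, equal list sizes, all annotated genes, a replicate block and leaving out each library. Deviations of same-numbered libraries did not correlate positively, which does not exclude a pairing by number or in another order. The code was tested on simulated data, and Python 3.11.15, NumPy 2.4.6, pandas 2.3.3, SciPy 1.17.1 and Matplotlib 3.10.9 were used. Reads are not independent molecules, and the lists hold no value below the threshold of the peak calling.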

Additional observations from a re-analysis of the deposited data

How the results depend on the processing

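With 2 HepG2 libraries, counts rest on each of them. The number of members listed in HepG2 alone was 2 and fell to 1 with a -log10 q of at least 5, since TTR was then listed in 1 HepG2 library, and it ranged from 2 to 4 when a library was left out. It was 4 without HepG2 WT 1, which adds APOB and SERPINA1. With equal list sizes it was 2 with other members, since TTR was listed in 1 HepG2 library and HNF4A in HepG2 alone. Members with antisense peaks in HepG2 alone fell from 5 to 4 with a -log10 q of at least 5 (without FOXA1) and with equal list sizes (without SERPINA1). The mean number of sense peaks of the 9 genes in HepG2 was 18 and ranged from 12 to 24. The 803 genes with more sense peaks in HepG2 ranged from 807 to 1176 with a library left out. By its rule this number can only stay or rise when a library is left out, as can the number of members listed in HepG2 alone. The number of genes passing an adjusted p of 0.05 for the percentile of the strongest peak was 2876 and was 0 with equal list sizes, with all annotated genes, under the replicate block and with any library left out (0 to 0). The smallest possible p is higher with the block or a library left out, more genes are tested with all annotated genes, and for equal list sizes the cause was not tested. In the settings that kept all libraries, the differences of the members gave 110 values. Of these, 94 stayed on the same side of the threshold, 16 no longer passed it and 0 reversed. Before any change of setting only the percentile differences of HNF4A, FOXA1, FOXA2, FGB and TTR passed it, so only these could lose it. With equal list sizes, all annotated genes or the replicate block, none of these 5 passed.

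Replicate numbers are shared between groups. The deviations of same-numbered libraries correlated at -0.0394 for HepG2 and K562 WT, -0.119 in K562 and -0.238 to -0.113 in NB4. No correlation was positive, but with so few replicates this cannot exclude a pairing by number or in another order. Under the replicate block 840 genes reached the smallest possible p with more sense peaks in HepG2, against 797 without it. The smallest possible p of the exact permutation test was 0.0278 under the block and 0.011 without it, so the 2 numbers are not at the same level. Under the block HNF4A, FOXA1, FOXA2, FGB and TTR had an adjusted p of 0.107 for the percentile (exact permutation test). RBFOX2 KD against Control gave 0 genes at an adjusted p of 0.05. Under the block, and with the K562 numbers crossed (chosen after seeing the data), the smallest possible p was 0.0625, so that no gene could pass.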
